A study of Mus musculus with 6 samples.

Results

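The large subunit of the mitochondrial ribosome was examined in brain microvessels of TEKCRIF1 mice through the 48 genes whose symbol is *Mrpl* followed by a number, together with *Gadd45gip1*, the gene of CRIF1. These 49 genes were taken by symbol from the 23183 gene symbols of the expression tables by a rule on the symbol alone, with earlier results of these data known. RNA of isolated cerebral microvessels was sequenced from 3 control mice (WT: TEK-cre, *Crif1* +/+) and 3 knockout mice (KO: TEK-cre, *Crif1* flox/flox), with 1 library per mouse. The strain is given as C57BL/6, and the age and sex of these mice are not given in the sources used here. Both groups carry the same Cre, which is driven by the endothelial gene *Tek*, and the floxed *Crif1* allele is the difference in genotype that is stated. The vessels were isolated by homogenization, dextran centrifugation and a cell strainer, with no sorting of endothelial cells described, so each library is a bulk sample in which fewer cells of a type and less RNA per cell cannot be told apart.

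The mitochondrial ribosome translates the few proteins that are still encoded in mitochondrial DNA, all of them membrane-embedded parts of the respiratory chain and ATP synthase. Both of its subunits are built from ribosomal RNAs made inside the organelle and from proteins that are encoded in the nucleus, made in the cytosol and imported. The large subunit carries the peptidyl transferase centre, where amino acids are joined, and the tunnel through which the new chain leaves toward the inner membrane. CRIF1 is a protein of this large subunit that is required for the synthesis of the mitochondrially encoded chains and their insertion into the membrane.

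Expression was given as FPKM, in which the fragments counted on a gene are divided by its exon length and by the size of the library. KO and WT were compared with limma on the scale of log2(FPKM + 1) for the 14247 genes whose 6 values averaged 1 FPKM or more. All 49 large-subunit genes passed this filter. After Benjamini-Hochberg adjustment over the 14247 genes, 0 of 49 members and 0.0% of all genes passed 0.05 in limma, and the smallest adjusted p of any member was 0.841. The calls given here therefore rest on the unadjusted limma p. By that rule 1 of 49 members was lower in KO, beside 3.11% of all genes tested, and 2 of 49 were higher, beside 2.77% of all genes. With 3 mice in each group the exact permutation test, run two-sided, has 0.1 as its smallest p, which it gives for groups that do not overlap. KO 2 stood apart from KO 1 and KO 3 in most of these genes, and the counts are also given without it.

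*Gadd45gip1* lies at chr8:84831522-84835482 (GRCm38, plus strand) and has 2 annotated exons. Its level was 18.8, 15.3 and 16.5 FPKM in the WT mice and 10.8, 7.54 and 10.4 FPKM in the KO mice. Every KO mouse lay below every WT mouse, and KO 2 was the lowest of the 6. The mean was 16.9 ± 1.76 FPKM in WT (SD, n = 3) and 9.57 ± 1.78 in KO, so the KO mean was 56.7% of the WT mean. The log2 fold change was -0.77 (SE 0.22), with an unadjusted limma p of 0.00534 and an adjusted p of 0.841. With any 1 library left out it stayed between -0.86 and -0.62.

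Among the large-subunit genes, *Gadd45gip1* was in the middle of the order in WT and near the bottom in KO. Ranked by FPKM within a library, it was number 28, 31 and 30 of the 49 members in WT 1, WT 2 and WT 3 and number 41, 42 and 41 in KO 1, KO 2 and KO 3. Set against the median *Mrpl* gene of the same library, it stood at 94.2%, 80.3% and 74.1% in the WT mice and at 37.0%, 36.1% and 38.0% in the KO mice. This share, which does not depend on how libraries are scaled to each other, spread by less among the KO mice than among the WT mice.

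The WT levels of the members spanned a wide range. *Mrpl52*, a subunit found only in mitochondrial ribosomes, had the highest mean in WT at 94.4 ± 3.67 FPKM, followed by *Mrpl42*, another mitochondria-specific subunit, at 68.3 ± 11.1 and *Mrpl30*, the counterpart of bacterial uL30, at 57.4 ± 11.0. The lowest were *Mrpl35*, the counterpart of bL35, at 4.01 ± 1.61 FPKM, *Mrpl17* at 4.45 ± 0.324 and *Mrpl1* at 4.53 ± 1.03 (SD, n = 3 each). Neighbours in this order differed by less than the spread between mice at both ends, except that *Mrpl52* lay above *Mrpl42* in every WT mouse. *Mrpl52* read 93.3, 91.4 and 98.5 FPKM in WT and 95.5, 69.2 and 71.5 in KO, where 2 of the 3 mice were below all WT mice and KO 1 was within the WT range. *Mrpl42* read 57.4, 68.0 and 79.5 FPKM in WT and 104, 54.1 and 115 in KO, with 2 KO mice above all WT mice and KO 2 below them. *Mrpl30* was at 50.1 to 70.1 FPKM in WT and 48.7 to 72.7 in KO, so its groups overlapped throughout.

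**Figure D1:**
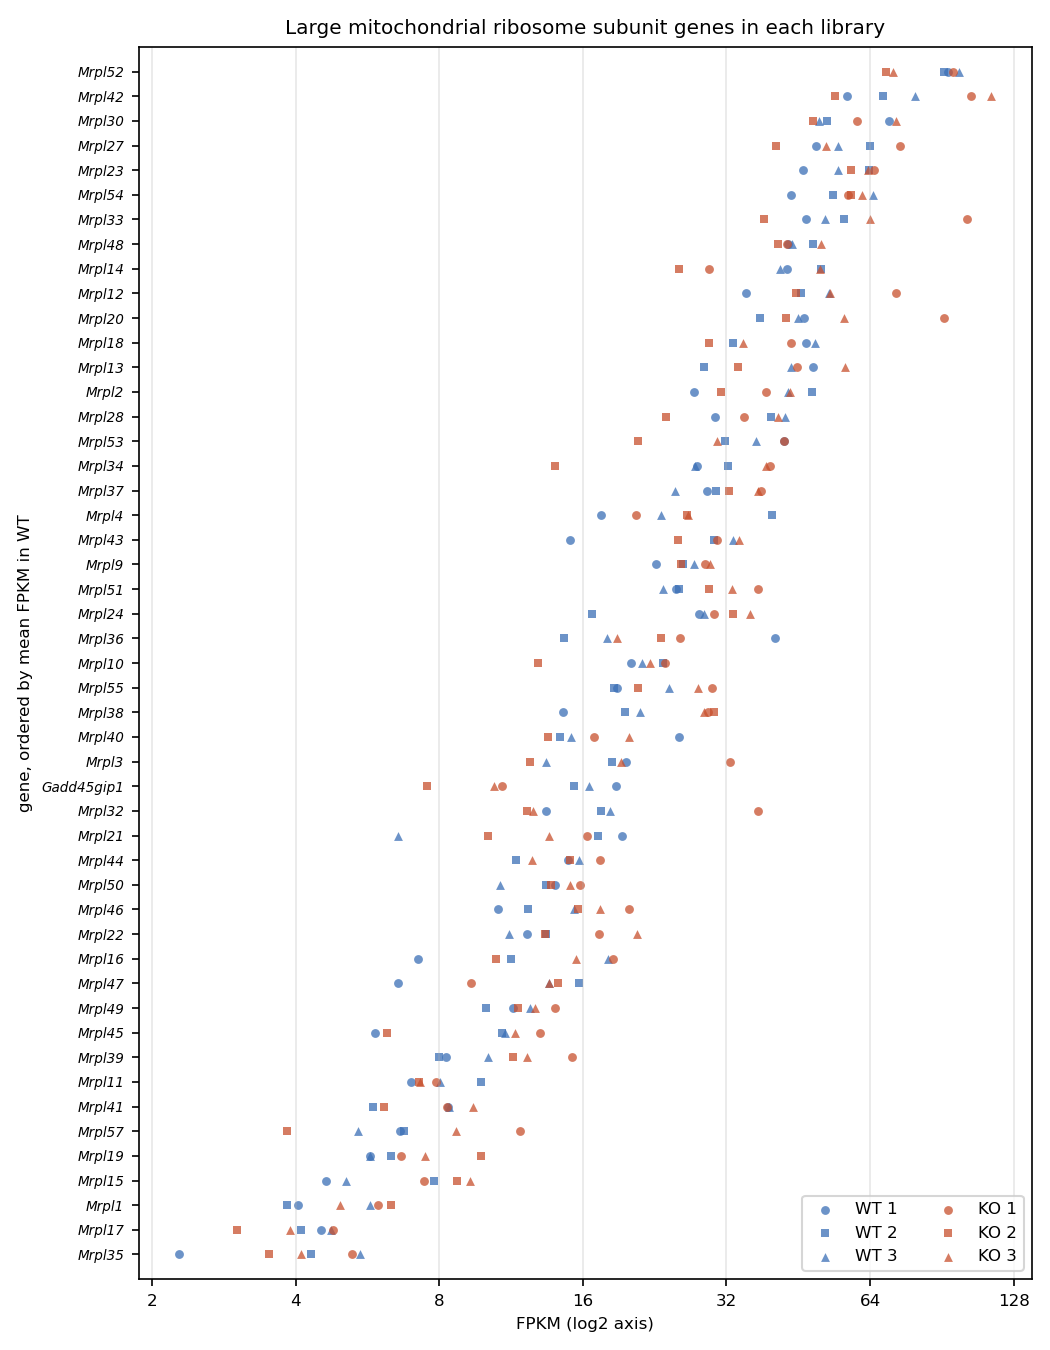
FPKM (log2 axis) of each of the 49 members in the 6 libraries, 1 row per gene in the order of the WT mean, with WT in blue and KO in red and a symbol for each mouse. The WT means run from 4.01 FPKM for *Mrpl35* to 94.4 FPKM for *Mrpl52*, and the red points of *Gadd45gip1* lie left of its blue points.

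2 *Mrpl* genes were higher in KO at an unadjusted p under 0.05. *Mrpl38* (chr11:116131817-116138868, minus strand) codes for a mitochondria-specific protein of the central protuberance, the ridge at the top of the large subunit that faces the small one. It read 14.5, 19.6 and 21.1 FPKM in WT and 29.2, 30.1 and 28.7 FPKM in KO. All KO mice were above all WT mice and lay close together, and WT 1 was the lowest of the 6. The means were 18.4 ± 3.45 and 29.4 ± 0.720 FPKM, a KO mean of 160% of WT, with a log2 fold change of 0.66 (SE 0.20, unadjusted limma p = 0.00878, adjusted p = 0.841, exact permutation p = 0.1). Without KO 2 the log2 fold change was 0.64 (SE 0.21), with an unadjusted limma p of 0.0145. As a share of the median *Mrpl* gene of the same library it read 72.7%, 103% and 94.6% in WT and 99.6%, 144% and 105% in KO, and on this within-library scale KO 1 lay between WT 2 and WT 3, so the groups overlapped. No exonic base of *Mrpl38* is shared with another annotated gene.

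*Mrpl39* (chr16:84717576-84735742, minus strand) codes for a mitochondria-specific subunit that resembles threonyl-tRNA synthetases. Its level was 8.26, 8.0 and 10.1 FPKM in WT and 15.2, 11.4 and 12.2 FPKM in KO, with KO 1 the highest and no overlap between the groups. The log2 fold change was 0.51 (SE 0.21, unadjusted limma p = 0.0401, exact permutation p = 0.1). Without WT 1, WT 2, KO 1 or KO 3 the unadjusted limma p was 0.103, 0.119, 0.141 and 0.0537, with a log2 fold change of 0.47, 0.45, 0.39 and 0.54. *Mrpl39* also shares no exonic base with another gene.

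7 of 49 members had all KO mice above all WT mice, beside 5.37% of all genes tested, and 1 of 49, *Gadd45gip1*, had all KO mice below, beside 5.7% of all genes. The other 5 *Mrpl* genes of the first kind did not reach an unadjusted p of 0.05. *Mrpl51*, a mitochondria-specific subunit, read 25.1, 25.5 and 23.6 FPKM in WT and 37.3, 29.4 and 32.8 in KO, with a log2 fold change of 0.40 (SE 0.19, unadjusted limma p = 0.0573, exact permutation p = 0.1). *Mrpl46*, which codes for another protein of the central protuberance, read 10.6, 12.3 and 15.3 FPKM in WT and 20.0, 15.6 and 17.4 in KO, with a log2 fold change of 0.45 (SE 0.22, unadjusted limma p = 0.0632, exact permutation p = 0.1). In both genes KO 1 was the highest mouse and KO 2 the lowest of the KO mice, and in *Mrpl46* WT 3 and KO 2 were almost equal. *Mrpl24*, the counterpart of the exit tunnel protein uL24, was at 28.0, 16.7 and 28.7 FPKM in WT and 30.1, 33.0 and 35.8 in KO, with a log2 fold change of 0.45 (SE 0.24, unadjusted limma p = 0.0877, exact permutation p = 0.1). Its groups were set apart mostly by WT 2, the other 2 WT mice being close to KO 1. *Mrpl37*, a mitochondria-specific subunit, was at 29.1, 30.4 and 24.9 FPKM in WT and 37.8, 32.4 and 37.2 in KO (log2 fold change 0.34, SE 0.19, unadjusted limma p = 0.102, exact permutation p = 0.1). *Mrpl19*, the counterpart of bL19 at the face between the subunits, was at 5.72, 6.34 and 5.71 FPKM in WT and 6.66, 9.78 and 7.47 in KO (log2 fold change 0.36, SE 0.23, unadjusted limma p = 0.149, exact permutation p = 0.1). It was the only one of the 7 with its highest value in KO 2 other than *Mrpl38*.

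Some of these values share sequence with a neighbour. In *Mrpl19*, 36.0% of the exonic bases overlap *Gcfc2*, and in *Mrpl24*, 26.3% overlap *Rrnad1*, both on the opposite strand. *Rrnad1* read 3.01, 2.94 and 5.02 FPKM in WT and 8.07, 6.97 and 4.21 in KO, and *Gcfc2* read 0.456, 0.883 and 1.39 in WT and 2.47, 2.79 and 0.908 in KO. Both neighbours had 2 KO mice above all WT mice and KO 3 within the WT range, and their part in the values of *Mrpl24* and *Mrpl19* was not tested. In *Mrpl46*, 12.2% of the exonic bases overlap *Mrps11*, a small-subunit gene whose log2 fold change was -0.24 (SE 0.25, unadjusted limma p = 0.355, exact permutation p = 0.6). Of the 48 *Mrpl* genes, 21 share exonic bases with another annotated gene, 19 of them with a gene on the opposite strand and 16 with a protein-coding gene. The library kit keeps strand, but whether the counting used it is not given in the sources used here.

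**Figure D2:**
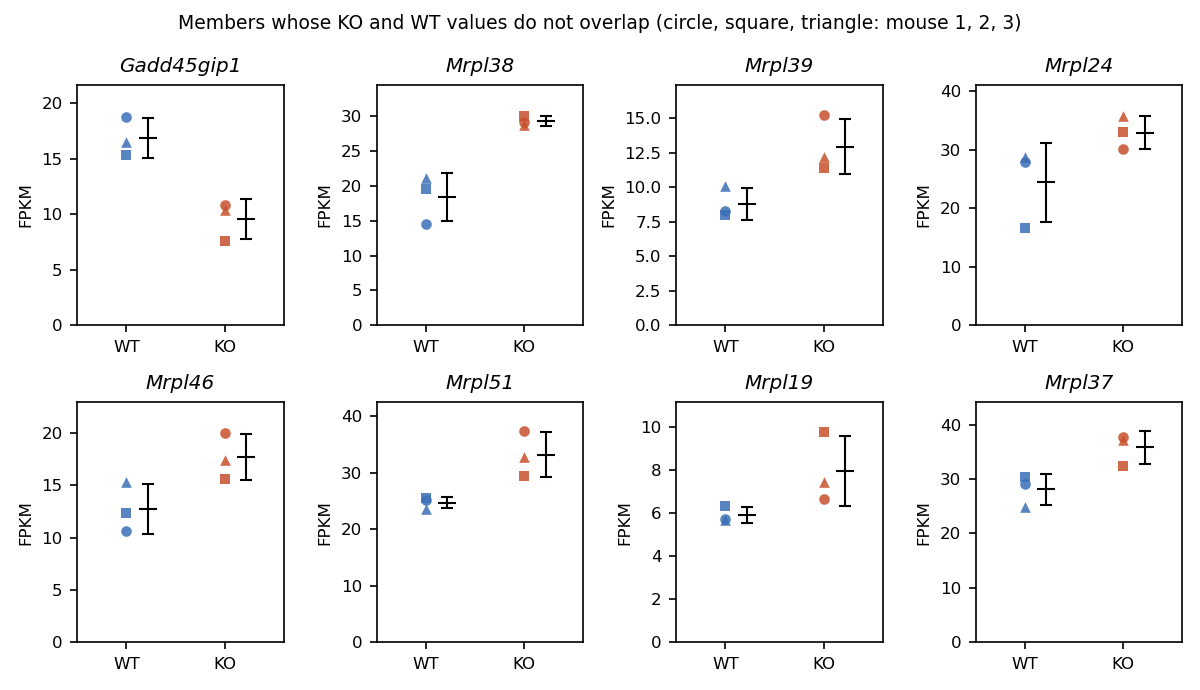
FPKM of the 8 members whose KO and WT values did not overlap, with 1 point per mouse, the mean as a bar and the SD as whiskers (n = 3 per group, axes from 0). *Gadd45gip1* has a WT mean of 16.9 and a KO mean of 9.57 FPKM, and the 7 *Mrpl* genes were above WT in every KO mouse, by the most in *Mrpl38* (18.4 to 29.4 FPKM).

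2 further genes were among the 5 with the largest log2 fold changes without a separation of the groups. *Mrpl15*, the counterpart of uL15, read 4.62, 7.80 and 5.10 FPKM in WT and 7.44, 8.70 and 9.29 in KO (log2 fold change 0.49, SE 0.25, unadjusted limma p = 0.076, exact permutation p = 0.2). WT 2 lay within the KO range, and without it the log2 fold change was 0.69, with an unadjusted limma p of 0.0308. Without any other library the log2 fold change was 0.37 to 0.57, with an unadjusted limma p of 0.0818 to 0.228. *Mrpl20*, the counterpart of the early rRNA-binding protein bL20, read 46.6, 37.6 and 45.2 FPKM in WT and 91.4, 42.6 and 56.5 in KO (log2 fold change 0.48, SE 0.27, unadjusted limma p = 0.106, exact permutation p = 0.3). Here KO 1 was far above the rest and KO 2 was within the WT range.

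At the other end, 4 *Mrpl* genes had the most negative values after *Gadd45gip1*, and none reached an unadjusted p of 0.05. *Mrpl14*, the counterpart of uL14, where an assembly factor docks on the immature subunit, was at 42.8, 50.4 and 41.4 FPKM in WT and 29.4, 25.4 and 50.2 in KO, with a log2 fold change of -0.41 (SE 0.26, unadjusted limma p = 0.149, exact permutation p = 0.3). KO 1 and KO 2 were below all WT mice, KO 3 was level with the highest WT mouse, and without KO 3 the log2 fold change was -0.69, with an unadjusted limma p of 0.0098. Without any other library it was -0.46 to -0.21, with an unadjusted limma p of 0.174 to 0.399. *Mrpl53* was at 42.3, 31.7 and 36.9 FPKM in WT and 42.2, 20.9 and 30.6 in KO (log2 fold change -0.28, SE 0.26), but 88.0% of its exonic bases belong also to *Gm42688* on the same strand, so how fragments were divided between them is uncertain. *Mrpl52* (-0.27, SE 0.20) and *Mrpl18* (-0.25, SE 0.23) followed, and their groups overlapped.

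**Figure D3:**
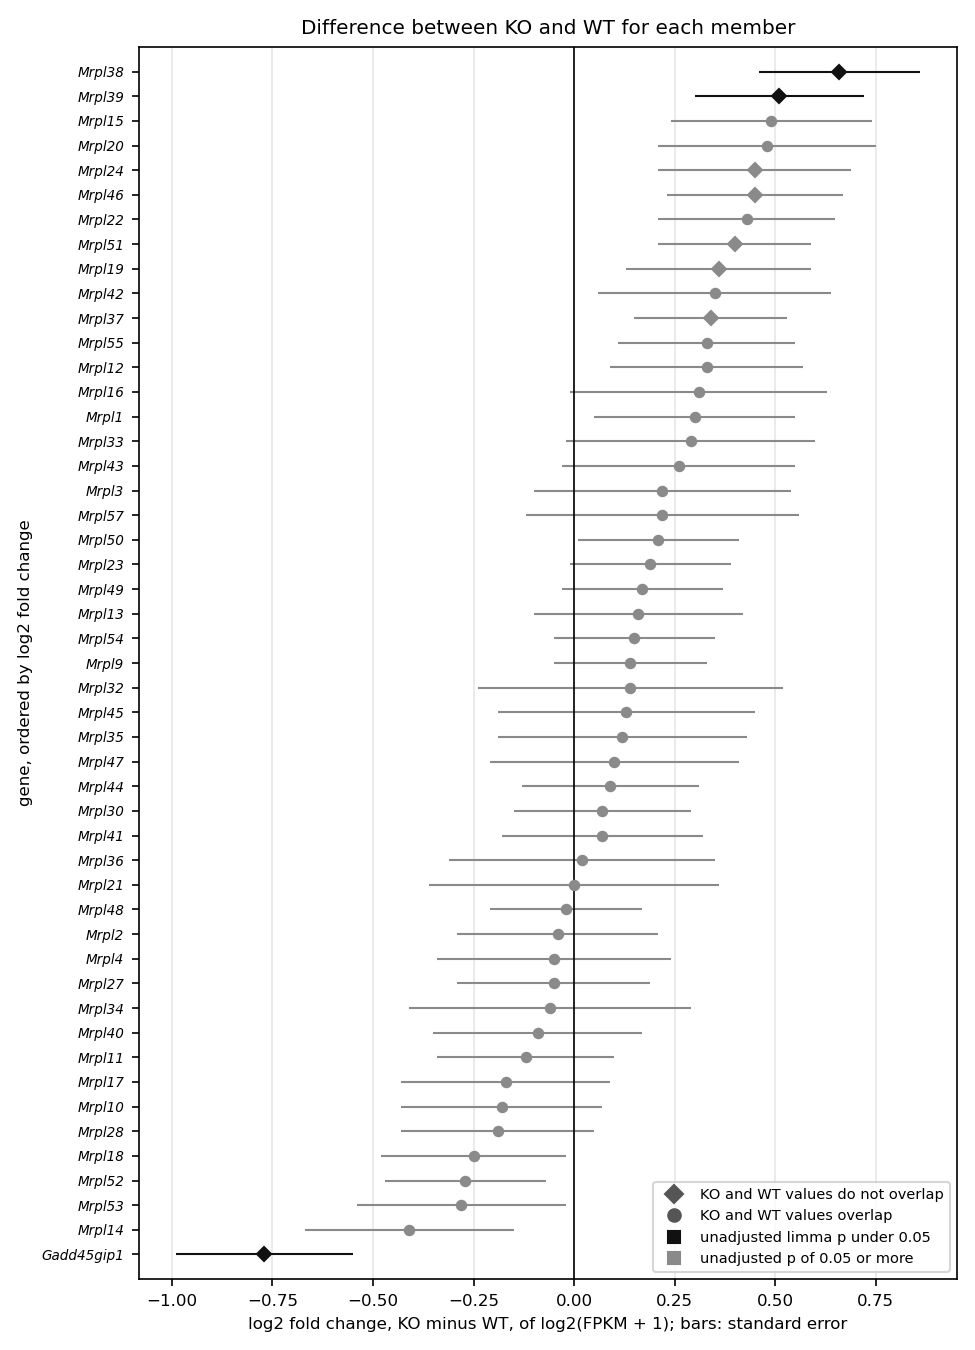
Log2 fold change (KO minus WT, of log2(FPKM + 1)) of the 49 members with its standard error, ordered by size, with diamonds for groups that do not overlap and black for an unadjusted limma p under 0.05. The values run from -0.77 for *Gadd45gip1* to 0.66 for *Mrpl38*, and 34 of the 48 *Mrpl* genes lie right of 0.

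The structural regions of the subunit were described next. Of the 5 proteins around the rRNA core and the peptidyl transferase centre, 2 had a positive and 3 a negative log2 fold change, with a median of -0.04 and 0 called in either direction. *Mrpl2* (-0.04), *Mrpl4* (-0.05) and *Mrpl27* (-0.05), whose protein reaches toward the catalytic site, lay close to 0, while *Mrpl3* was at 0.22 (SE 0.32) and *Mrpl16* at 0.31 (SE 0.32). *Mrpl16* read 7.20, 11.3 and 18.1 FPKM in WT and 18.5, 10.5 and 15.5 in KO, so the spread between the WT mice covered nearly all of the KO values. *Mrpl4* was likewise spread among the WT mice, at 17.5, 39.9 and 23.3 FPKM, against 20.7, 26.5 and 26.6 in KO.

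Around the exit tunnel, 5 of 6 genes had a positive log2 fold change, with a median of 0.16 and 0 called. *Mrpl24* is given above. *Mrpl22*, whose protein lines the tunnel, was at 12.2, 13.4 and 11.2 FPKM in WT and 17.3, 13.3 and 20.8 in KO (log2 fold change 0.43, SE 0.22, unadjusted limma p = 0.0798, exact permutation p = 0.2), and KO 2 alone lay within the WT range. *Mrpl23* was at 0.19, *Mrpl45*, the protein that holds the ribosome at the inner membrane, at 0.13 (SE 0.32), *Mrpl47* at 0.10 and *Mrpl17* at -0.17 on the log2 scale. *Mrpl45* and *Mrpl47* had the same low mouse in WT, with 5.85 and 6.55 FPKM in WT 1 against 10.8 to 11.0 and 13.6 to 15.7 FPKM in the other WT mice, and without WT 1 their log2 fold changes were -0.14 and -0.25.

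The stalks are the mobile arms that handle tRNAs and recruit translation factors. Of their 4 genes, *Mrpl12*, whose protein also binds the mitochondrial RNA polymerase, was at 0.33 (SE 0.24) and *Mrpl1* at 0.30 (SE 0.25), while *Mrpl11* was at -0.12 and *Mrpl10* at -0.18, for a median of 0.09 and 0 called. *Mrpl12* read 35.1, 45.8 and 52.6 FPKM in WT and 72.6, 44.8 and 52.8 in KO, so that KO 1 stood well above the WT mice and KO 3 was level with the highest of them. *Mrpl10* read 20.2, 23.6 and 21.3 FPKM in WT and 23.8, 12.9 and 22.1 in KO, so that KO 2 stood alone below them. *Mrpl11* varied little, at 6.96 to 9.76 FPKM in WT and 7.25 to 7.88 in KO.

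The central protuberance held values in both directions. 2 of its 5 genes, *Mrpl38* and *Mrpl46*, had all KO mice above all WT mice, beside 5.37% of all genes, and the other 3, *Mrpl18* (-0.25), *Mrpl40* (-0.09) and *Mrpl48* (-0.02), had negative log2 fold changes, for a median of -0.02. *Mrpl18* was at 47.0, 33.0 and 49.0 FPKM in WT and 43.6, 29.4 and 34.7 in KO, and *Mrpl48* was at 43.1, 48.6 and 44.0 in WT and 42.8, 41.0 and 50.6 in KO. Their groups overlapped, as did those of *Mrpl40*. Whether genes of this region differed from each other in their response was not tested.

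By descent, 30 members have a counterpart in bacterial ribosomes and 19, *Gadd45gip1* included, do not. The first had a median log2 fold change of 0.13, with 20 positive and 10 negative, and 0 called in either direction. The mitochondria-specific genes had a median of 0.17, with 14 positive and 5 negative. 2 of them, *Mrpl38* and *Mrpl39*, were called higher, beside 2.77% of all genes. 1 was called lower, beside 3.11% of all genes, and it was the deleted gene *Gadd45gip1*. The mitochondria-specific genes held 5 of the 7 genes with all KO mice above WT, beside 5.37% of all genes, and the classes were not tested against each other. 3 proteins of the large subunit carry other symbols. *Ict1*, a peptidyl-tRNA hydrolase built into the subunit, read 29.4, 38.4 and 68.1 FPKM in WT and 62.6, 33.2 and 74.7 in KO (log2 fold change 0.33, SE 0.36). *Mrps18a* was at 0.21 (SE 0.27) and *Mrps30* at -0.13 (SE 0.21), and the groups of all 3 overlapped.

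Over all 48 *Mrpl* genes the median log2 fold change was 0.14, and 34 of them (70.8%) were positive, against a median of -0.01 and 49.2% of all genes tested. Without KO 1 the median of the *Mrpl* genes was 0.07, with 27 positive, and without KO 2 it was 0.23, with 40 positive. For 31 genes of the small subunit the median was 0.05, with 17 positive and 14 negative. 1 of the 31 was higher at an unadjusted p under 0.05 in limma, a share near the 2.77% of all genes. It was *Mrps6*, at 54.0, 50.3 and 32.8 FPKM in WT and 109, 51.2 and 75.5 in KO (log2 fold change 0.73, SE 0.30, unadjusted limma p = 0.0332, exact permutation p = 0.2). These medians are descriptions, since the genes of a ribosome share libraries and are not independent of each other, and the difference between the subunits was not tested.

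The shift of the *Mrpl* genes was not the same in the 3 KO mice. With each gene set against its own WT mean, the median *Mrpl* gene was at 0.30 in KO 1 and 0.23 in KO 3 but at -0.10 in KO 2, while the WT mice were at -0.07, 0.08 and 0.07 on the log2 scale. In KO 1, 41 of 48 genes lay above their WT mean, in KO 3, 39, and in KO 2, 22. The WT mice had 18, 30 and 29 of 48. Of all genes tested, between 48.2% and 51.4% lay above their WT mean in each of the 6 libraries, with medians of -0.02 to 0.01. Compared pairwise, 40 of 48 *Mrpl* genes were higher in KO 1 than in KO 2, by a median of 0.35, and only 6 were higher in KO 2 than in KO 3. The small subunit was likewise lowest in KO 2, with medians of 0.10 in KO 1, -0.36 in KO 2 and 0.17 in KO 3.

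**Figure D4:**
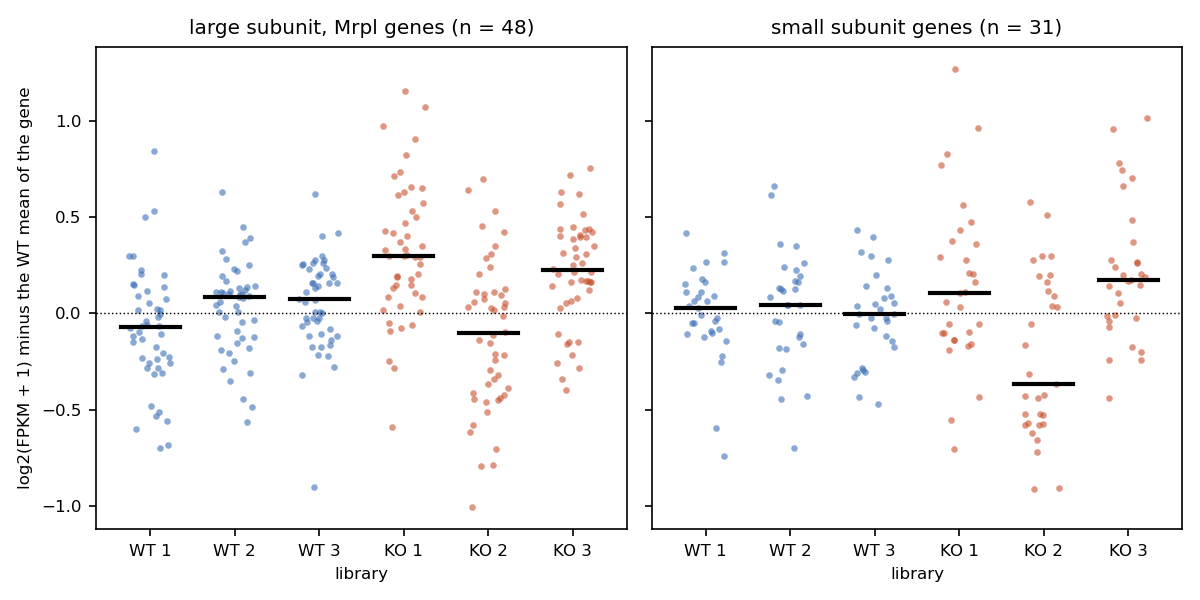
log2(FPKM + 1) minus the WT mean of the same gene for the 48 *Mrpl* genes (left) and 31 small-subunit genes (right), 1 point per gene and library, with the median as a bar. The *Mrpl* medians are 0.30 in KO 1, -0.10 in KO 2 and 0.23 in KO 3.

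The counts of higher members depended on KO 2. Without it, 12 of 49 members were higher in KO at an unadjusted limma p under 0.05, beside 7.31% of all genes tested in the same 5 libraries, and 19 of 49 had all KO mice above WT, beside 16.3% of all genes. KO 2 was picked out as the low KO mouse in these same genes. The counts without it and the shares of all genes are therefore not like for like. The 12 were *Mrpl38* and *Mrpl39* with *Mrpl20*, *Mrpl22*, *Mrpl33*, *Mrpl34*, *Mrpl37*, *Mrpl42*, *Mrpl46*, *Mrpl51*, *Mrpl55* and *Mrpl57*. *Mrpl34*, the counterpart of bL34, was not among those with a positive value when KO 2 was kept. It was at 27.8, 32.2 and 27.5 FPKM in WT and 39.4, 14 and 38.8 in KO, which gave a log2 fold change of -0.06 with KO 2 and 0.41 without it. *Mrpl33* was at 46.9 to 56.4 FPKM in WT and at 102, 38.4 and 64.1 in KO, and its log2 fold change went from 0.29 to 0.64. Over all alternatives in processing given below, the lowest log2 fold change of *Mrpl33* was -0.05, with a change of sign in 1. In contrast, *Gadd45gip1* was lower in KO with or without KO 2, and KO 2 held its lowest value. Leaving out any other library gave 1 to 3 of 49 members higher in KO, beside 1.42% to 3.53% of all genes. It gave 8 to 11 of 49 with all KO mice above WT, beside 8.04% to 11.5% of all genes, both above the values with all 6 libraries. The 11 were found without WT 3, beside 9.38%.

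KO 2 was also at the low end in depth, and its values related to gene length with the opposite sign to KO 1 and KO 3. Its estimated depth was the lowest, about 6400000 fragments against 7900000 to 12000000 in the other libraries, an estimate from the spacing of low FPKM values that depends on annotated lengths. A floor of 3 fragments over 1 kb then amounts to 0.26 to 0.47 FPKM, below the lowest value of any member, 2.28 FPKM for *Mrpl35* in WT 1, and *Gadd45gip1* rested on an estimated 120 to 530 fragments per library. Over all genes tested, the deviation from the WT mean had a Spearman correlation with transcript length of -0.24 in KO 1, 0.23 in KO 2 and -0.14 in KO 3. In WT 1, WT 2 and WT 3 it was 0.01, -0.02 and -0.01. The correlation with GC content was -0.22, -0.33 and -0.14 in the KO mice and -0.11, 0.17 and -0.04 in the WT mice. For the log2 fold change of all genes it was -0.35 with GC content and -0.07 with length. The *Mrpl* genes are short, with a median longest transcript of 1732 bases (604 to 7300) against 3386 for all genes tested. Within the *Mrpl* genes the correlation with length was 0.09, 0.25 and 0.09, and the 24 longer genes showed the same order of KO mice (0.34, -0.10 and 0.27) as the 24 shorter ones (0.25, -0.13 and 0.19). With each library corrected for its trend on length the median log2 fold change of the *Mrpl* genes was 0.14, and with a correction for GC content it was 0.11. These correlations are across genes that share a library and are given without a test.

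**Figure D5:**
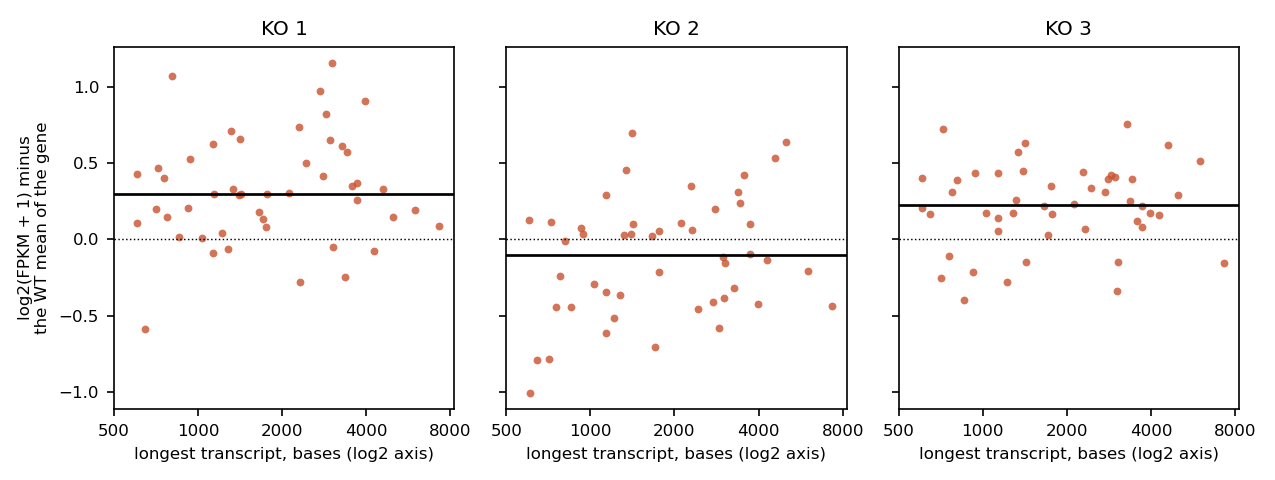
log2(FPKM + 1) minus the WT mean of the same gene against the length of its longest transcript (bases, log2 axis) for the 48 *Mrpl* genes in each KO mouse, with the median as a solid line. The median is -0.10 in KO 2, 0.30 in KO 1 and 0.23 in KO 3, and points above and below it are found at short and long lengths in each mouse.

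The spread between mice of 1 group was also described. The median SD of an *Mrpl* gene on the log2 scale was 0.23 in WT and 0.26 in KO, and 25 of 48 genes had the larger SD in KO, against 64.4% of all genes tested, whose median SD was 0.24 in WT and 0.34 in KO.

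Genes that act with the large subunit were described from lists. Of 23 tested factors that mature mitochondrial rRNA or assemble the ribosome, 13 had a positive log2 fold change, the median was 0.04, and 0 were called. The largest values were those of *Mterf3* (0.54, SE 0.32), *Nsun4*, an rRNA methyltransferase (0.54, SE 0.32), and *Rpusd3*, a pseudouridine synthase (0.48, SE 0.36). *Nsun4* read 1.14, 1.66 and 2.37 FPKM in WT and 3.27, 3.02 and 2.40 in KO, with the groups just apart. Of 14 translation and membrane insertion factors, 12 were positive, with a median of 0.14 and 0 called, led by *Slirp*, an mRNA-stabilizing protein (0.42, SE 0.28), by the elongation factor *Gfm1* and by *Gfm2*, a factor of ribosome recycling (0.32, SE 0.27 each). *Slirp* had the pattern of *Mrpl33*, with 71.2 to 83.2 FPKM in WT and 158, 70.9 and 99.2 in KO. Of 7 tested genes for transcription and replication of mitochondrial DNA, 3 were positive, with a median of -0.14 and 0 called. The helicase gene *Peo1*, now named *Twnk*, was at 5.21, 3.63 and 3.85 FPKM in WT and 2.38, 3.09 and 3.03 in KO (log2 fold change -0.44, SE 0.27, unadjusted limma p = 0.133, exact permutation p = 0.1), below WT in every KO mouse, and its locus overlaps 33.4% of the exonic bases of *Mrpl43*. The RNAs of mitochondrial DNA itself were not analysed here.

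Markers of the cells in the preparation were read beside these values. The endothelial marker *Pecam1* was at 90.9, 69.6 and 55.8 FPKM in WT and 81.8, 58.8 and 88.9 in KO, and the 10 endothelial markers summed to 1050 to 1490 FPKM in WT and 941 to 1270 in KO, with a median log2 fold change of -0.13. 1 of the 10, *Cdh5*, the cadherin of endothelial junctions, was called, at 86.7, 92.4 and 91.3 FPKM in WT and 50.8, 42.5 and 38.1 in KO (log2 fold change -1.03, SE 0.19, unadjusted limma p = 3.03e-04, exact permutation p = 0.1). Other cells were present in all libraries. The summed markers of astrocytes (382 to 541 FPKM in WT, 322 to 350 in KO) and of microglia (94.1 to 106 and 77.1 to 90.3) did not overlap between the groups. Those of pericytes (802 to 1300 and 843 to 945), arterial smooth muscle (225 to 561 and 257 to 754), neurons (192 to 399 and 133 to 338), oligodendrocytes (271 to 392 and 145 to 348) and red blood cells (5460 to 7520 and 3590 to 8820) did. Only *Gfap* of 6 astrocyte and *Cx3cr1* of 5 microglia markers had all KO mice below WT, beside 5.7% of all genes. *Gfap* also had the highest WT mean of its list, 183 FPKM. The median log2 fold change was -0.35 over 6 astrocyte markers, -0.22 over 5 of microglia, -0.36 over 7 of pericytes, 0.41 over 4 of smooth muscle, -0.24 over 6 of neurons, -0.48 over 5 of oligodendrocytes and -0.24 over 6 of red blood cells. The leading marker of each list was not called, *Aqp4* at -0.26, *Cx3cr1* at -0.43, *Pdgfrb* at -0.39, *Acta2* at 0.37, *Snap25* at -0.27, *Mbp* at -0.41 and *Hba-a1* at -0.28. Beside 3.11% of all genes, those called lower at an unadjusted limma p under 0.05 were *Gfap* (-0.52) and *Gjb6* (-0.60) of 6 astrocyte markers, *Anpep* (-0.46) and *Cspg4* (-0.49) of 7 pericyte markers, *Slc17a7* (-0.86) of 6 neuronal markers, and *Mag* (-0.84) and *Cnp* (-0.61) of 5 oligodendrocyte markers. *Hbb-bs* of the red blood cell list was also called, but it is listed at 0 in WT 1 and all KO mice and at 126 and 10.6 FPKM in WT 2 and WT 3. No marker of smooth muscle or microglia was called, and no marker of any list was called higher. The pericyte, neuron, oligodendrocyte and microglia lists each held 1 marker with a positive log2 fold change. These were *Rgs5* (0.24), *Gad1* (0.20), *Mog* (0.57) and *P2ry12* (0.52). 3 of the 7 pericyte markers, *Pdgfrb*, *Anpep* and *Cspg4*, had all KO mice below all WT mice, beside 5.7% of all genes, while most of the summed level was that of *Vtn*, at 586 to 995 FPKM in WT and 527 to 699 in KO. No other marker was at 0 in any library, and the part of these cells in the values of the ribosomal genes was not tested.

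The members lie on 17 chromosomes, with 7 on chromosome 11 and 5 on chromosome 19. 17 of the 49 (34.7%) have the start of another protein-coding gene on the opposite strand within 500 bp of their own, against 12.6% of 13658 tested protein-coding genes. Such head-to-head pairs include *Mrpl51* with *Ncapd2*, *Mrpl36* with the complex I gene *Ndufs6*, *Mrpl32* with the proteasome gene *Psma2*, and *Mrpl46* with *Mrps11*. Promoters, taken as 250 bases before to 50 after the annotated start, were found for 42 members in a RefSeq table (GRCm38.p6), and 7 were missing, *Mrpl4*, *Mrpl13*, *Mrpl15*, *Mrpl19*, *Mrpl38*, *Mrpl54* and *Gadd45gip1*. They were searched on both strands for motifs of 3 factors known to act at genes of mitochondrial proteins. The ETS family motif CCGGAAG was in 33.3% of the 42 members against 9.93% of all 27025 genes of the table. The NRF1 motif GCGCNTGCG was in 31.0% against 7.12%, and the YY1 motif AAGATGGC in 14.3% against 3.19%. A match describes these letters in this window and is not a site at which binding was measured.

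For 3 members with all KO mice above WT the promoter is shown, 1 for each motif, with the motif in capitals. That of *Mrpl39* (chr16:84735195-84735494, minus strand) holds the NRF1 motif once on each strand in overlapping positions, that of *Mrpl51* (chr6:125191950-125192249, plus strand) the ETS motif, and that of *Mrpl37* (chr4:107066817-107067116, minus strand) the YY1 motif just past the start. All are written 5′ to 3′ on the strand of the gene.
Mrpl39: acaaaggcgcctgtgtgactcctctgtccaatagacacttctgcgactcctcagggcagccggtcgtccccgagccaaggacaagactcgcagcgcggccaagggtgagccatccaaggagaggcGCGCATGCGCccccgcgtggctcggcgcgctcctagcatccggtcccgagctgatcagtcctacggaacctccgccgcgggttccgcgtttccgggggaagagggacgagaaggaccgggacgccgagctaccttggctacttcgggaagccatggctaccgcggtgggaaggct
Mrpl51: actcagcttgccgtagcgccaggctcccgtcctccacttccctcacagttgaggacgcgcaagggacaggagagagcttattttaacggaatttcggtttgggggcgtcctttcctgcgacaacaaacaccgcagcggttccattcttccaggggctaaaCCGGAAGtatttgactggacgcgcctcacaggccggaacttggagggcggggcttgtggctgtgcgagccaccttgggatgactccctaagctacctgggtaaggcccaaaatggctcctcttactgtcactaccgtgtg
Mrpl37: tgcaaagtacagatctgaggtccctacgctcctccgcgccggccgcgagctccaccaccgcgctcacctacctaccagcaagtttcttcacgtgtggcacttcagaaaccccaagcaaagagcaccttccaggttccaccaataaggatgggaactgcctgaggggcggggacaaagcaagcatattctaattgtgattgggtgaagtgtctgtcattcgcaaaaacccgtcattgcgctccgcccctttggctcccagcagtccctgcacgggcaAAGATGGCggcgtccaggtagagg

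Members with the ETS or the NRF1 motif had log2 fold changes of both signs, such as *Mrpl18* (ETS, -0.25) and *Mrpl51* (ETS, 0.40) or *Mrpl14* (NRF1, -0.41) and *Mrpl39* (NRF1, 0.51). The 6 members with the YY1 motif ran from 0.02 in *Mrpl36* to 0.35 in *Mrpl42*, and *Mrpl37* was the only one of these 6 whose groups did not overlap. Among these 6, *Mrpl36*, *Mrpl35* and *Mrpl32* changed sign in 5, 2 and 1 of the alternatives in processing given below. Of all *Mrpl* genes, 70.8% were positive, and no motif was tested against the others.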

How the data were processed

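RNA-seq of cerebral microvessels from 3 WT and 3 KO mice was used, with groups and replicate numbers from the sample titles. The authors removed adapters and low-quality bases, mapped read pairs with TopHat (build mm10 in the submitters' processing notes) and deposited FPKM values for 23183 gene symbols per library. The program that computed FPKM, its annotation, its use of strand and any normalization between libraries are not given in the sources used here. FPKM are not counts, so the DESeq2 test of the study was replaced by limma 3.58.1 (R 4.3.3) on log2(FPKM + 1) with a trended variance, for the 14247 genes that averaged 1 FPKM or more, with Benjamini-Hochberg adjustment over all of them. Single genes were also compared with an exact two-sided permutation test (smallest p 0.1). Python 3.11.15, pandas 2.3.3, numpy 2.4.6 and scipy 1.17.1 were used. The script was tested on simulated data.

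The members and all lists were chosen with earlier results of these data known. Named were *Gadd45gip1*, members with an unadjusted p under 0.05 or without overlap of the groups, the 5 largest and 5 most negative log2 fold changes, the 3 highest and 3 lowest WT means, members of the structural regions and large-subunit genes with other symbols, and at most 3 genes of every other list. Genes named for their exonic overlap, for the effect of KO 2, for a motif or as cell type markers called lower, with *Vtn*, *Cdh5*, *Rgs5*, *Gad1*, *Mog* and *P2ry12*, were chosen after their values were seen. Positions, exons, transcript length and GC content came from GENCODE M21 (GRCm38, the same assembly as mm10), matched for 22821 symbols, 673 of them by synonym. Depth was estimated at 6400000 to 12000000 fragments per library from low FPKM values, and the limit of 3 fragments stands for counting error alone. Alternatives were no filter, a mean of at least 5 FPKM, median, trimmed-mean and quantile scaling, a pseudocount of 0.1, limma without the trended variance, a replicate block, loess corrections (span 0.3) for length or GC content, and leaving out each library. The counts of groups that do not overlap with a library left out were added after seeing the data. The mice are taken as separate animals from the labels. 1 gene that was examined is not reported here.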

Additional observations from a re-analysis of the deposited data

How the results depend on the processing

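*Gadd45gip1* kept its direction and an unadjusted limma p under 0.05 in all 16 alternatives (log2 fold change -0.86 to -0.62, largest p 0.0257), as did *Mrpl38* (0.51 to 0.84, largest p 0.0474). The median log2 fold change of the *Mrpl* genes ranged from 0.07 to 0.23, the lowest without KO 1 and the highest without KO 2. The number of members higher in KO, 2 as reported, was 5 without a filter on low values (2.44% of all genes), 4 after quantile normalization (3.1%) and 1 with the replicate block (3.09%), under which *Mrpl39* had a p of 0.064. It was 1 to 12 with a library left out, 12 without KO 2 (7.31% of all genes) and 1 without WT 1, KO 1 or KO 3. The number of members lower in KO was 1 to 2 with a library left out, 2 without KO 3, where *Mrpl14* was added and 3.44% of all genes were lower, so this share is near that of all genes. *Mrpl39* was also no longer called with the correction for GC content, with a limma p of 0.0506. The number of members with all KO mice below WT was 1 to 5, and 5 without KO 1, where 9.31% of all genes lay below, again a share near that of all genes. The cause of these changes was not tested.

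Of the 49 members, 26 kept the sign of their log2 fold change in all alternatives that tested them and 23 changed it in at least 1, none of these with an unadjusted p under 0.05 as reported. Genes with an adjusted p under 0.05 in limma numbered 0 as reported, where 443 had an unadjusted p under 0.05 and were lower and 395 were higher, 1 without a filter, 1 without WT 3, and 4 without KO 2 or without KO 3. Same-numbered mice did not deviate together (correlations 0.037, 0.027 and 0.002). With 3 mice per group this cannot decide whether the numbers pair the mice, and the labels do not say. Precision was limited by 3 mice per group and a depth of 6400000 to 12000000 fragments.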
